A study of Mus musculus with 25 samples.

Results

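The genes described here were the histone-modifying enzymes of the mouse macrophage transcriptome whose symbols place them among the lysine demethylases (Kdm), the Kmt2, Setd and Ezh methyltransferases, the numbered histone deacetylases (Hdac) and the sirtuins (Sirt). The rule used symbols alone and no measured value, and 54 of the 24411 genes in the count tables met it: 18 Kdm, 5 Kmt2, 11 Setd, 2 Ezh, 11 Hdac and 7 Sirt genes. The choice was made with earlier results of these data known. Strand-specific, ribosomal RNA-depleted RNA-seq had been run on 25 libraries in 9 groups, 7 of bone marrow-derived macrophages (BMDM) with 3 libraries each and 2 of the RAW264.7 line with 2 each. BMDM were primary cells of C57BL/6 mice grown in DMEM with 25 ng/ml M-CSF for 4 days, and the mice's age, number and pooling were not given in the sources used here. The BMDM groups were a control without cytokine, cells given IFN-γ at 100 U/ml and LPS at 100 ng/ml (IFN-γ-primed LPS, the M1 stimulus), labelled 1, 4, 12 or 24 h, and cells given IL-4 or IL-13 at 10 ng/ml (the M2 stimuli) for 12 h. The study describes priming as pretreatment with IFN-γ and does not give its length. How long the cells had IFN-γ before LPS is therefore not known here. RAW264.7, 1 established macrophage-like line grown in RPMI without M-CSF, was left as control or given LPS at 100 ng/ml alone for 4 h. The study gives its origin as Balb/c mice infected with Abelson murine leukemia virus. One control set, labelled as 4 h of culture, served every BMDM time point, so all comparisons with control shared its 3 libraries. For the 1, 12 and 24 h groups, time in culture differed from control as well and cannot be told apart from the stimulus.

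Histone tails are written and erased by opposing enzymes. Methyltransferases of the Kmt2 and Setd1 families place methyl groups on lysine 4 of histone H3 (H3K4), a mark of active promoters and enhancers, whereas Ezh1 and Ezh2 methylate H3K27 within the Polycomb repressive complex PRC2 and Setdb1 and Setdb2 methylate H3K9, both linked to silencing. Demethylases remove these groups, with Kdm1 and Kdm5 proteins acting on H3K4, Kdm3 and Kdm4 on H3K9, Kdm2 on H3K36 and Kdm6 on H3K27. Histone deacetylases and the NAD-dependent sirtuins take acetyl groups from histones and from other proteins. In macrophages, enzymes of this kind are known to restrain or permit inflammatory and alternative gene programmes, with Kdm6b and Hdac3 among the best studied.

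Sense-strand gene counts totalled 2378639 to 3357300 per library (median 2718848), of which the ribosomal RNA gene Rn45s took 20.1 to 39.8%. Without it, 1502618 to 2532496 counts per library remained, and levels are given as CPM, a gene's counts scaled by this total and the TMM factor, as mean ± SD over a group's libraries. Fold changes are log2 values ± SE from edgeR's quasi-likelihood fit, and a gene was called at a Benjamini-Hochberg adjusted p (FDR) ≤ 0.01 over all genes tested. The libraries carried their labels' cell type: 7 macrophage markers summed to 22622 to 24474 CPM in control BMDM and 8532 to 8695 CPM in control RAW264.7, and Cd3e, Cd3d and Cd3g were at 0 in every library. Tnf, Il12b, Nos2 and Irf1, which answer to M1 stimuli, summed to 67.4 to 77.3 CPM in control and 16226 to 17170.4 CPM at 4 h, and Arg1, Chil3 and Retnla, which answer to M2 cytokines, to 3.26 to 5.90 CPM in control, 698 to 778 CPM with IL-4 and 1413 to 1443 CPM with IL-13. Markers of other cells were low but moved with the groups, with 5 neutrophil and precursor genes summing to 13.0 to 21.9 CPM in control BMDM and 36.5 to 47.6 CPM at 4 h, and 4 fibroblast genes to 50.8 to 104 CPM over BMDM and 0 in RAW264.7. Summed B cell, dendritic cell, NK cell and mast cell genes were at most 1.79, 4.35, 3.34 and 0.842 CPM, and Cd247, the one T cell gene found, at most 9.10 CPM. Their part in the members' values was not tested. In bulk RNA, fewer cells of a type and less RNA per cell cannot be told apart. The share of Rn45s reads on the antisense strand was 0.0386 to 0.122% in the 12 BMDM libraries of control, 1, 4 and 12 h. It was 0.00603 to 0.0214% in the other 9 BMDM libraries (24 h and both M2 cytokines). In the 4 RAW264.7 libraries it was 0.0199 to 0.0283%. This difference between libraries cannot be told apart from the group in comparisons across these sets. Within BMDM they are 24 h, IL-4 and IL-13 against control, 24 h against 12 h, and 12 h of the M1 stimulus against either M2 cytokine. Resting RAW264.7 against resting BMDM is another.

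In resting BMDM the members spanned a wide range of expression, compared here per kilobase of merged exons. The highest were Sirt2, a cytoplasmic and nuclear deacetylase, at 35.2 ± 2.38 CPM per kb, Setd3, an actin histidine methyltransferase, at 20.9 ± 0.804 CPM per kb and Kdm7a, a demethylase of H3K9 and H3K27, at 20.5 ± 1.50 CPM per kb. Kdm5c followed at 13.9 ± 0.436, Hdac5 at 11.9 ± 0.338 and Hdac3 at 9.82 ± 0.958 CPM per kb. Kdm6b lay near the bottom at 0.516 ± 0.0864 CPM per kb, beside Hdac4 at 0.499 ± 0.168 and Hdac11 at 0.420 ± 0.143, and Kdm4d had no count in any control library. These ranks changed with the M1 stimulus, with Kdm6b at 16.0 ± 1.22 CPM per kb after 1 h and Kdm4a and Setdb2 at 49.5 ± 1.50 and 41.4 ± 2.48 CPM per kb after 4 h. A filter on low counts left 48 members testable in BMDM. Hdac11, Kdm4d, Sirt4, Sirt5, Kdm8 and Setd4 did not pass it.

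IFN-γ-primed LPS changed the members in both directions at every time point. The largest rise was that of Kdm6b at 1 h, of Setdb2 at 4 h and 12 h and of Kdm4a at 24 h. At 1 h, 5 of 48 members were higher than in control against a background of 15.2% of 9841 genes, and 5 were lower against 10.9%. At 4 h, 9 were higher against 26.4% and 14 lower against 24.5%. At 12 h, 9 were higher against 24.5% and 10 lower against 22.4%. At 24 h, 7 were higher against 23.1% and 9 lower against 21.5%. As shares of the 48 members tested, these were 10.4% higher and 10.4% lower at 1 h, 18.8% and 29.2% at 4 h, 18.8% and 20.8% at 12 h and 14.6% and 18.8% at 24 h. Set against the shares of all genes, these are read as no result about the members, which are described below for which of them moved. For 1, 4, 12 and 24 h, respectively, their median log2-fold change was -0.17, -0.17, -0.32 and -0.24, beside -0.01, -0.06, -0.01 and 0.00 for all genes tested. Over the course, 35 of 48 members were called at 1 or more time points against 71.3% of all genes tested, 13 only higher against 34.4%, 19 only lower against 32.5% and 3 in both directions against 4.42% (Kdm6a, Kdm7a and Sirt1). Sirt1 and Setd7 were called at all 4 time points. Every member called against control had libraries that did not overlap with the control libraries. The share of all called genes with such a separation was not counted, so this is read as no result about the members. Scaling by library totals in place of TMM moved the median of all genes by -0.21, -0.57, -0.35 and -0.22 in the same order, and gave 2 members higher and 13 lower after 1 h, 6 and 26 after 4 h, 7 and 24 after 12 h and 5 and 18 after 24 h. Of all genes, that scaling called 10.5 and 19.6% higher and lower after 1 h, 15.2 and 48.7% after 4 h, 15.8 and 35.98% after 12 h and 16.4 and 30.2% after 24 h. All changes below are relative to the TMM scale.

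**Figure D1:**
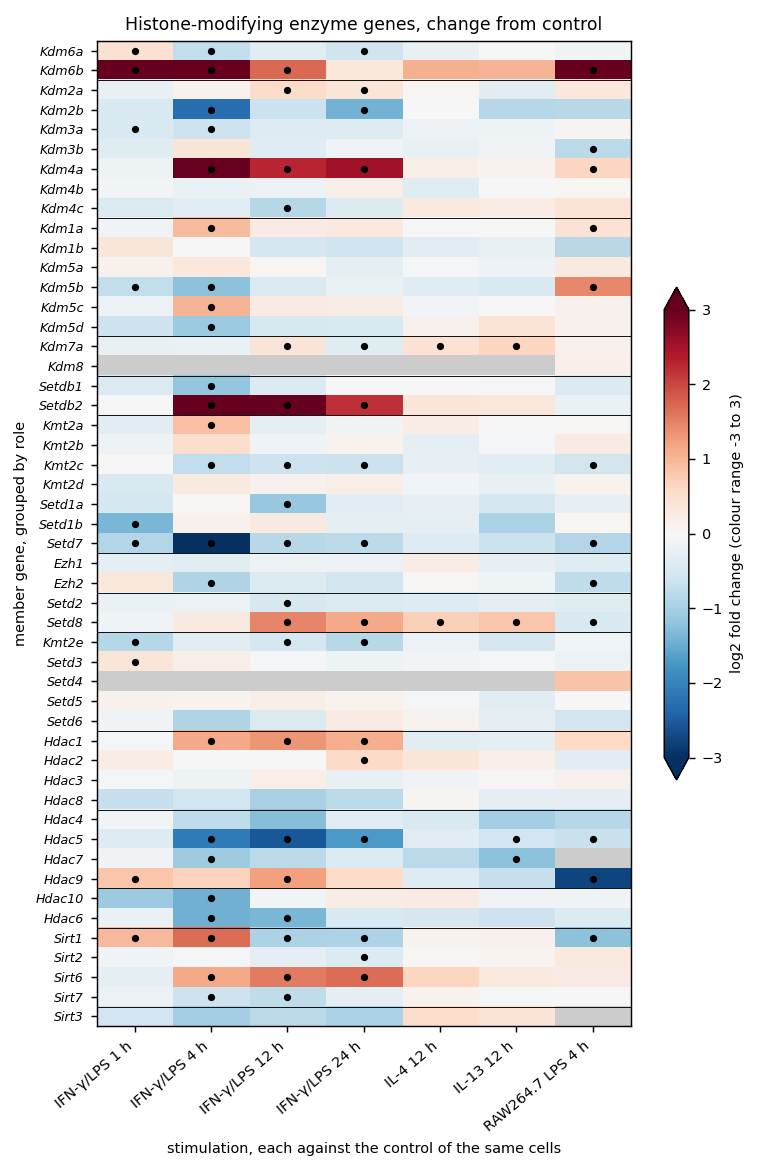
Log2-fold change of each member (rows) in the 4 IFN-γ-primed LPS, IL-4, IL-13 and RAW264.7 LPS groups against their own control (columns), on a colour scale limited to 3 in either direction, with a dot where the FDR was ≤ 0.01 and grey where the gene was not tested. Among the rises, Kdm6b passed the end of the scale at 1 h, at 4 h and in RAW264.7, Setdb2 at 4 h and 12 h and Kdm4a at 4 h. Colour does not rank values past that end. The IL-4 and IL-13 columns held 2 and 4 dots.

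The 2 demethylases of H3K27 followed different courses. Kdm6b, known as an early response gene in macrophages, rose steeply and fell back, whereas Kdm6a, its X-linked relative, was called higher at 1 h and lower at 4 h and 24 h. Kdm6b (chr11:69398508-69413675 of GRCm38, the build of mm10) measured 3.22, 3.26 and 4.28 CPM in the 3 control libraries (6, 6 and 8 counts), 115, 102 and 117 CPM at 1 h, 43.4, 33.4 and 49.2 CPM at 4 h, 16.7, 11.0 and 8.23 CPM at 12 h and 4.40, 5.47 and 3.79 CPM at 24 h. The 1 h, 4 h and 12 h libraries all lay above every control library, and those of 24 h overlapped with it. Its log2-fold change compared with control was 4.93 ± 0.23 at 1 h (adjusted p = 1.29e-27), 3.51 ± 0.28 at 4 h (adjusted p = 4.49e-17) and 1.73 ± 0.35 at 12 h (adjusted p = 2.33e-05), and at 24 h it was 0.32 ± 0.41 with adjusted p = 0.533. Kdm6a measured 73.5, 84.7 and 80.2 CPM in control, 108, 100.3 and 117 CPM at 1 h, 41.6, 45.8 and 57.4 CPM at 4 h, 63.5, 55.2 and 68.8 CPM at 12 h and 47.9, 56.2 and 53.5 CPM at 24 h. It was upregulated at 1 h (log2-fold change 0.45 ± 0.12, adjusted p = 0.00267) and downregulated at 4 h (log2-fold change -0.73 ± 0.15, adjusted p = 2.04e-05) and 24 h (log2-fold change -0.60 ± 0.13, adjusted p = 7.56e-05), and at 12 h it was not called (log2-fold change -0.35 ± 0.13, adjusted p = 0.0219). Not called under every alternative was Kdm6a at 1 h (by DESeq2, with library totals, with the stricter filter and without control replicate 1 or 1 h replicate 3, adjusted p 4.86e-04 to 0.110 over 15 alternatives).

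The genes whose group means followed Kdm6b most closely over the 7 BMDM groups, by Pearson r of log2 CPM and as a description only, were Odc1 (0.987), Slc25a25 (0.986), Rlim (0.977), Clec9a (0.976) and Zdhhc17 (0.974).

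Among the demethylases of H3K9 and H3K36, Kdm4a stood out. It removes methyl groups from trimethylated H3K9 and H3K36 and was raised from 4 h onward. Its CPM values were 30.1, 27.7 and 23.0 in control, 22.9, 21.2 and 27.8 at 1 h, 296, 279 and 285 at 4 h, 123, 175 and 102 at 12 h and 172, 152 and 143 at 24 h. The 9 libraries of 4, 12 and 24 h all exceeded every control and 1 h library. The log2-fold change against control was 3.40 ± 0.15 at 4 h (adjusted p = 2.38e-28), a 10.5-fold rise, 2.29 ± 0.16 at 12 h (adjusted p = 1.81e-19) and 2.52 ± 0.15 at 24 h (adjusted p = 7.44e-22), while at 1 h it was -0.16 ± 0.20 (adjusted p = 0.583). The start region of Kdm4a is shown because this gene was, with Setdb2 and Kdm6b, among the 3 members that rose most at 4 h. The RefSeq promoter window (mouse GRCm38.p6, chr4:118179994-118180293, minus strand, 250 bases before to 50 after the start) held 1 match to the AP-1 letters TGANTCA, in capitals, starting 190 bases before the start site. A match was found in 7.81% of 32851 windows of the same length searched on both strands.
Kdm4a: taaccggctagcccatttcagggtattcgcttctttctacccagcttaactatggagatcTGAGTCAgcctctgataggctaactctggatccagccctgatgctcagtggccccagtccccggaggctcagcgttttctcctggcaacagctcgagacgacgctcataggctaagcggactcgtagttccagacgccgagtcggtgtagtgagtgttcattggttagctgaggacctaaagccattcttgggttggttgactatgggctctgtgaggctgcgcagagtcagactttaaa

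Kdm2b, an H3K36 demethylase that also ties a variant Polycomb complex to CpG islands, went the other way. It measured 12.9, 10.3 and 13.4 CPM in control, 2.66, 1.55 and 3.28 CPM at 4 h, 6.93, 7.15 and 9.41 CPM at 12 h and 5.38, 4.47 and 3.79 CPM at 24 h. All libraries of 4 h, 12 h and 24 h lay below all controls. Kdm2b was called lower at 4 h (log2-fold change -2.28 ± 0.41, adjusted p = 2.95e-06) and 24 h (log2-fold change -1.43 ± 0.31, adjusted p = 6.57e-05). At 12 h it was not called (log2-fold change -0.64 ± 0.29, adjusted p = 0.0562). Kdm2a, its close relative, was slightly higher at 12 h (log2-fold change 0.56 ± 0.12, adjusted p = 3.13e-05) and 24 h (log2-fold change 0.37 ± 0.11, adjusted p = 0.00426). Kdm3a, which demethylates H3K9, was lower at 1 h (log2-fold change -0.46 ± 0.14, adjusted p = 0.00803) and 4 h (log2-fold change -0.61 ± 0.16, adjusted p = 5.76e-04), and Kdm4c, another H3K9 demethylase, was lower at 12 h (log2-fold change -0.87 ± 0.20, adjusted p = 1.90e-04). Kdm3b, the relative of Kdm3a, was called at no time point against control, with means of 68.5 ± 7.47 CPM in control and 90.1 ± 27.2 CPM at 4 h (log2-fold change 0.38 ± 0.16, adjusted p = 0.0361). Kdm4b was not called either, with group means between 17.7 and 23.0 CPM along the course. The calls that did not hold throughout were Kdm2a at 12 h (with library totals, adjusted p 2.02e-05 to 0.101 over 15 alternatives), Kdm2a at 24 h (by DESeq2, with library totals, with the stricter filter and without control replicate 1 or 3 or 24 h replicate 1, adjusted p 0.00177 to 0.246 over 15 alternatives), Kdm3a at 1 h (by DESeq2, without the filter and without control replicate 2 or 3 or 1 h replicate 1, 2 or 3, adjusted p 1.09e-04 to 0.0547 over 15 alternatives) and Kdm3a at 4 h (without 4 h replicate 2, adjusted p 1.56e-09 to 0.0126 over 15 alternatives).

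Of the 6 demethylases of H3K4, Kdm1a and Kdm5c were upregulated and Kdm5b and Kdm5d downregulated at 4 h, while Kdm5a and Kdm1b were not called at any time point. Kdm5c, on the X chromosome, measured 95.0, 101 and 99.5 CPM in control, 92.2, 70.8 and 97.6 CPM at 1 h, 206, 207 and 190.2 CPM at 4 h, 125, 114 and 112 CPM at 12 h and 128, 93.4 and 122 CPM at 24 h. Its 4 h libraries were the 3 highest of the course (log2-fold change 1.02 ± 0.12, adjusted p = 6.11e-11). Kdm5d, the Y-linked counterpart of Kdm5c, measured 9.66, 11.4 and 12.8 CPM in control and 2.66, 7.76 and 4.92 CPM at 4 h, where it fell (log2-fold change -1.12 ± 0.38, adjusted p = 0.00944). The 3 other Y-linked genes measured, Ddx3y, Eif2s3y and Uty, summed to 94.3 to 177 CPM over all groups, and Xist was present in BMDM at 172 to 292 CPM and at 0 in RAW264.7, so the BMDM libraries held both Xist and Y-linked RNA. The part of either in the values of the sex-linked Kdm5c, Kdm5d and Kdm6a was not tested. Under some alternatives the FDR limit was missed by Kdm5d at 4 h (by DESeq2 and without control replicate 2 or 3 or 4 h replicate 1 or 3, adjusted p 7.50e-05 to 0.0780 over 14 alternatives).

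Kdm1a, also known as LSD1 and acting on mono- and dimethylated H3K4, measured 49.9, 47.2 and 44.9 CPM in control, 41.4, 47.6 and 43.5 CPM at 1 h, 80.6, 99.3 and 94.3 CPM at 4 h and 56.0, 59.1 and 53.5 CPM at 12 h. The rise was seen in all 3 libraries of 4 h (log2-fold change 0.94 ± 0.13, adjusted p = 1.30e-08), and neither 12 h (log2-fold change 0.24 ± 0.14, adjusted p = 0.132) nor 24 h (log2-fold change 0.30 ± 0.13, adjusted p = 0.0488) was called. Kdm5b measured 59.0, 41.8 and 47.6 CPM in control, 29.1, 28.3 and 31.4 CPM at 1 h, 23.0, 21 and 19.7 CPM at 4 h and 45.5, 38.3 and 45.0 CPM at 24 h. It was the one H3K4 demethylase called lower at 1 h (log2-fold change -0.74 ± 0.16, adjusted p = 1.37e-04) and was lower at 4 h as well (log2-fold change -1.23 ± 0.19, adjusted p = 6.19e-08). At 24 h it was not called (log2-fold change -0.21 ± 0.15, adjusted p = 0.226). Kdm5a, another Kdm5 enzyme, was among the steadiest members, with group means from 96.9 to 144 CPM along the course. A dependence on the processing was seen for Kdm1a at 4 h (with library totals, adjusted p 2.99e-09 to 0.0122 over 15 alternatives).

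Kdm7a was one of the most abundant members and moved little, with means of 206 ± 15.1 CPM in control, 270.4 ± 40.6 CPM at 12 h and 161 ± 16.7 CPM at 24 h. It was called higher at 12 h (log2-fold change 0.39 ± 0.11, adjusted p = 0.00189) and lower at 24 h (log2-fold change -0.36 ± 0.11, adjusted p = 0.00428). Kdm8 was not tested in BMDM and had group means of 0.710 to 5.04 CPM along the course. Not called under every alternative were Kdm7a at 12 h (with library totals, with the stricter filter and without control replicate 1 or 12 h replicate 3, adjusted p 5.80e-04 to 0.786 over 15 alternatives) and Kdm7a at 24 h (without control replicate 2 or 3 or 24 h replicate 1 or 2, adjusted p 3.29e-06 to 0.0317 over 15 alternatives).

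The 2 H3K9 methyltransferases among the members moved in opposite directions. Setdb2, a known interferon-responsive enzyme of macrophages, showed the largest rise of any member at 4 h. Setdb2 measured 6.44, 6.51 and 9.09 CPM in control, 10.1, 9.65 and 3.03 CPM at 1 h, 159, 165 and 179 CPM at 4 h, 53.7, 67.6 and 71.8 CPM at 12 h and 33.7, 36.3 and 31.6 CPM at 24 h. Control and 1 h libraries overlapped, and all 9 later libraries lay above them. Compared with control, its log2-fold change was -0.01 ± 0.33 at 1 h (adjusted p = 0.990), 4.49 ± 0.19 at 4 h (adjusted p = 1.61e-29), which is 22.4-fold, 3.11 ± 0.22 at 12 h (adjusted p = 1.29e-19) and 2.18 ± 0.23 at 24 h (adjusted p = 3.42e-12). Setdb1, which trimethylates H3K9 at retroelements, measured 39.2, 39.1 and 45.5 CPM in control, 14.2, 16.3 and 25.4 CPM at 4 h and 41.5, 40.8 and 41.7 CPM at 24 h. Its 4 h libraries were the lowest (log2-fold change -1.15 ± 0.20, adjusted p = 1.26e-06), and at 24 h it was not called (log2-fold change 0.00 ± 0.15, adjusted p = 0.988). The Setdb2 start region is shown as that of the member with the largest rise. Its RefSeq window (GRCm38.p6, chr14:59440831-59441130, minus strand) held none of the 7 motifs searched, which says only that those letters are not in these 300 bases. Counted over all windows of a gene, 5 of the 43 members with a window held STAT letters (TTCNNNGAA, 9.55% of 27025 genes), 5 AP-1 (8.97%), 4 the E-box CACGTG (8.09%), 3 the NF-kB core (5.06%), 2 the STAT6 spacing (8.01%), 1 the interferon-stimulated response element core (9.76%) and 1 E2F (0.585%).
Setdb2: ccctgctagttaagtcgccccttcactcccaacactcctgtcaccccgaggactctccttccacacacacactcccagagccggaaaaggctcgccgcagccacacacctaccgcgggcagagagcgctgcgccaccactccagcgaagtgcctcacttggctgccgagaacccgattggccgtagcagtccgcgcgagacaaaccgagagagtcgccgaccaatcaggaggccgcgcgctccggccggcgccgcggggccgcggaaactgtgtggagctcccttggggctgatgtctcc

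Among the 7 H3K4 methyltransferases, Setd7 (chr3:51515319-51560879), which monomethylates H3K4 and several transcription factors, had the deepest fall of any member along the course. It measured 36.5, 22.3 and 30.0 CPM in control, 16.8, 18 and 13.7 CPM at 1 h, 1.77, 4.66 and 3.28 CPM at 4 h, 17.3, 18.2 and 14.1 CPM at 12 h and 21.5, 13.4 and 16.8 CPM at 24 h. All 12 stimulated libraries lay below all 3 controls, and those of 4 h below every other library of the course. The log2-fold change was -0.89 ± 0.21 at 1 h (adjusted p = 5.10e-04), -3.15 ± 0.33 at 4 h (adjusted p = 1.43e-12), -0.84 ± 0.21 at 12 h (adjusted p = 5.56e-04) and -0.78 ± 0.20 at 24 h (adjusted p = 6.85e-04). The calls that did not hold throughout were Setd7 at 1 h (without control replicate 1 or 1 h replicate 3, adjusted p 2.33e-05 to 0.0159 over 14 alternatives), Setd7 at 12 h (without control replicate 1, adjusted p 2.64e-06 to 0.0153 over 14 alternatives) and Setd7 at 24 h (without control replicate 1 or 24 h replicate 2, adjusted p 2.36e-05 to 0.0214 over 14 alternatives).

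The large Kmt2 enzymes, catalytic subunits of the COMPASS-like complexes, did not move together. Kmt2a measured 64.4, 50.5 and 64.2 CPM in control, 51.4, 48.2 and 42.5 CPM at 1 h and 124, 96.2 and 119 CPM at 4 h, where it rose (log2-fold change 0.90 ± 0.15, adjusted p = 7.19e-07). Kmt2c, an enhancer H3K4 methyltransferase, measured 115, 118 and 146 CPM in control and 76.1, 68.3 and 83.6 CPM at 4 h, and was lower at 4 h (log2-fold change -0.75 ± 0.14, adjusted p = 6.27e-06), 12 h (log2-fold change -0.63 ± 0.13, adjusted p = 4.23e-05) and 24 h (log2-fold change -0.64 ± 0.13, adjusted p = 2.04e-05). Kmt2b and Kmt2d were called at no time point. Setd1b, which trimethylates H3K4 at promoters, was called against control at 1 h and at no later time point, with 17.7, 20.6 and 20.3 CPM in control, 6.15, 7.08 and 9.10 CPM at 1 h and 27.4, 14.0 and 23.8 CPM at 4 h (log2-fold change -1.38 ± 0.30, adjusted p = 1.47e-04 at 1 h). Setd1a, its paralogue, was lower at 12 h (log2-fold change -1.13 ± 0.30, adjusted p = 0.00105). Its count is uncertain, since 51.85% of its exon bases overlap a same-strand gene, Gm49388. Under some alternatives the FDR limit was missed by Kmt2a at 4 h (with library totals, adjusted p 1.00e-09 to 0.0559 over 15 alternatives).

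The H3K27 methyltransferases were called once along the course, where Ezh2 was lower at 4 h. Ezh2, the PRC2 enzyme typical of dividing cells, measured 16.6, 14.7 and 13.4 CPM in control, 17.3, 19.9 and 19.7 CPM at 1 h, 10.6, 6.99 and 6.56 CPM at 4 h, 12.1, 9.75 and 11.8 CPM at 12 h and 10.3, 8.95 and 11.4 CPM at 24 h. It was lower at 4 h (log2-fold change -0.91 ± 0.29, adjusted p = 0.00542). Ezh1, the form typical of resting cells, lay above Ezh2 per kilobase in each of the 21 BMDM libraries and was among the steadiest members, with group means of 30.2 to 37.5 CPM along the course. Per kilobase, Ezh1 stood at 5.04 ± 0.444 and Ezh2 at 2.23 ± 0.247 CPM per kb in control. A set of 5 proliferation genes summed to 116 to 147 CPM in control, 288 to 315 CPM at 1 h, 172 to 197 CPM at 4 h and 68.8 to 102 CPM at 12 h, and their part in the Ezh2 values was not tested. Over the 7 BMDM groups, among the genes most like Ezh2 by Pearson r of log2 group means were Mcm4 (0.986), Nlrp1b (0.979), Uhrf1 (0.975) and Tipin (0.973). A dependence on the processing was seen for Ezh2 at 4 h (by DESeq2, without the filter and without control replicate 1 or 2 or 4 h replicate 2 or 3, adjusted p 8.09e-06 to 0.0359 over 14 alternatives).

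Setd8, the monomethyltransferase of H4K20 (named Kmt5a in newer annotation), rose at 12 h and 24 h. It measured 44.0, 41.3 and 56.2 CPM in control, 48.1, 39.2 and 43.5 CPM at 1 h, 54.9, 65.2 and 51.7 CPM at 4 h, 127, 144 and 124 CPM at 12 h and 108, 100.4 and 104 CPM at 24 h. The 12 h and 24 h libraries lay above all others of the course, with rises at 12 h (log2-fold change 1.47 ± 0.13, adjusted p = 1.99e-15) and 24 h (log2-fold change 1.14 ± 0.13, adjusted p = 2.19e-11), and 4 h was not called (log2-fold change 0.27 ± 0.15, adjusted p = 0.117). Setd2, the H3K36 methyltransferase, was slightly lower at 12 h (log2-fold change -0.47 ± 0.16, adjusted p = 0.00976). Of the remaining SET proteins, Kmt2e, which lacks clear methyltransferase activity, measured 66.3 ± 8.22 CPM in control and 37.2 ± 6.87 CPM at 1 h and was lower at 1 h (log2-fold change -0.86 ± 0.17, adjusted p = 2.61e-05), 12 h (log2-fold change -0.53 ± 0.16, adjusted p = 0.00428) and 24 h (log2-fold change -0.84 ± 0.16, adjusted p = 9.73e-06). Setd3 was slightly higher at 1 h (log2-fold change 0.36 ± 0.11, adjusted p = 0.00785). Setd5 and Setd6 were not called, and Setd4, not tested here, had group means of 1.38 to 4.47 CPM. Not called under every alternative were Setd2 at 12 h (by DESeq2 and without control replicate 2 or 3 or 12 h replicate 2 or 3, adjusted p 3.58e-05 to 0.106 over 15 alternatives), Kmt2e at 12 h (by DESeq2 and without control replicate 1 or 3 or 12 h replicate 3, adjusted p 1.19e-05 to 0.0871 over 15 alternatives) and Setd3 at 1 h (by DESeq2, with RLE size factors, with library totals, with the stricter filter and without control replicate 1, 2 or 3 or 1 h replicate 1, 2 or 3, adjusted p 9.14e-04 to 0.276 over 15 alternatives).

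**Figure D2:**
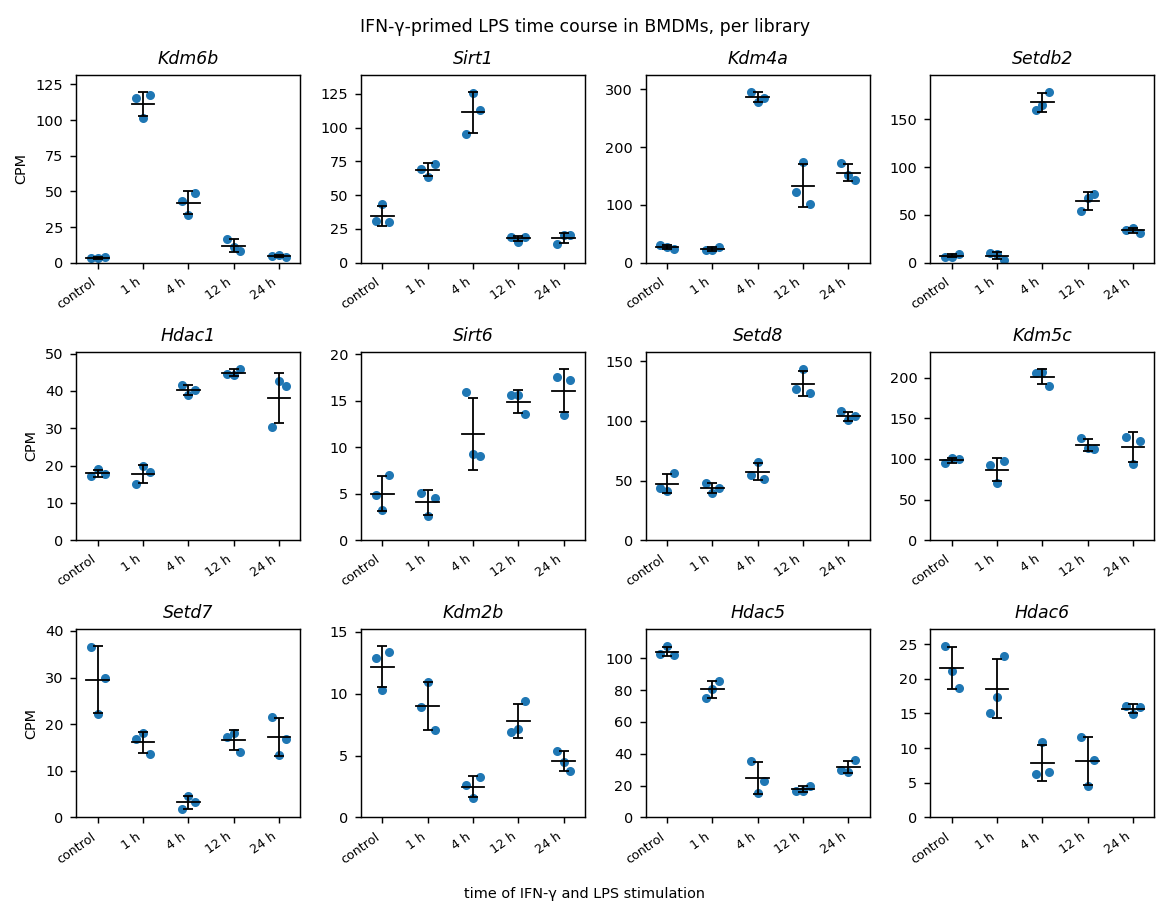
Level (CPM, linear axes that start at 0 and differ between panels) of 12 members in control BMDM and after 1, 4, 12 and 24 h of IFN-γ-primed LPS. Points are libraries, bars the mean and error bars the SD of 3 libraries. Kdm6b is highest at 1 h, Sirt1, Kdm4a, Setdb2 and Kdm5c at 4 h and Setd8 at 12 h, while Setd7, Kdm2b, Hdac5 and Hdac6 fall to their lowest at 4 or 12 h.

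Among class I deacetylases, nuclear catalytic subunits of the Sin3, NuRD, CoREST and NCoR complexes, Hdac1 was the one that rose from 4 h on. Hdac1 (chr4:129516104-129542713) measured 17.2, 19.0 and 17.7 CPM in control, 15.1, 19.9 and 18.2 CPM at 1 h, 41.6, 38.8 and 40.2 CPM at 4 h, 44.5, 44.2 and 45.9 CPM at 12 h and 30.3, 42.7 and 41.3 CPM at 24 h. The 9 libraries of 4, 12 and 24 h lay above every control and 1 h library. The log2-fold change was 1.15 ± 0.20 at 4 h (adjusted p = 1.73e-06), 1.31 ± 0.19 at 12 h (adjusted p = 1.52e-08) and 1.08 ± 0.19 at 24 h (adjusted p = 1.22e-06). Hdac2, the partner of Hdac1 in the same complexes, was not called until 24 h (log2-fold change 0.58 ± 0.18, adjusted p = 0.00577), with 26.8, 19.5 and 23.0 CPM in control and 27.4, 35.3 and 40.8 CPM at 24 h. Hdac3, the NCoR enzyme, was the steadiest member of all, with group means of 34.5 to 46.1 CPM along the course, and Hdac8 was not called, at 2.66 to 5.20 CPM. The call that did not hold throughout was Hdac2 at 24 h (by DESeq2, with library totals, with the stricter filter and without control replicate 2 or 3 or 24 h replicate 2 or 3, adjusted p 0.00108 to 0.0895 over 15 alternatives).

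Class IIa deacetylases, which shuttle between nucleus and cytoplasm, split as well. Hdac5 fell to a fraction of its control level, Hdac7 fell at 4 h and Hdac9 rose at 1 h and 12 h. Hdac5 (chr11:102194432-102230166) measured 103, 107 and 102 CPM in control, 74.9, 80.4 and 86.0 CPM at 1 h, 35.4, 15.5 and 23.0 CPM at 4 h, 16.7, 16.9 and 19.997 CPM at 12 h and 29.8, 28.8 and 36.2 CPM at 24 h. Every library from 4 h on lay far below all controls. Its log2-fold change was -0.38 ± 0.13 at 1 h (adjusted p = 0.0140), -2.11 ± 0.17 at 4 h (adjusted p = 2.34e-17), -2.54 ± 0.16 at 12 h (adjusted p = 4.53e-21), where it was the deepest fall of any member, and -1.71 ± 0.14 at 24 h (adjusted p = 1.19e-16). Hdac9, whose proteins often lack the catalytic domain and act as corepressors, measured 12.3, 13.0 and 13.4 CPM in control, 25.2, 26.4 and 18.2 CPM at 1 h, 21.2, 19.4 and 23.0 CPM at 4 h, 24.8, 24.0 and 42.9 CPM at 12 h and 21.5, 14.9 and 20.2 CPM at 24 h. It was called at 1 h (log2-fold change 0.82 ± 0.23, adjusted p = 0.00382) and 12 h (log2-fold change 1.24 ± 0.22, adjusted p = 2.99e-06) and not at 4 h (log2-fold change 0.70 ± 0.26, adjusted p = 0.0160) or 24 h (log2-fold change 0.54 ± 0.23, adjusted p = 0.0445). Hdac7 measured 10.7, 11.9 and 13.4 CPM in control and 5.31, 8.54 and 3.28 CPM at 4 h (log2-fold change -1.06 ± 0.35, adjusted p = 0.00746). Hdac4 was not called, with 3.20 to 7.90 CPM. Hdac9 is the one member whose promoter windows held the interferon-stimulated response element core GAAANNGAA, present in 8.56% of all windows, and so 1 window is shown (GRCm38.p6, chr12:34528840-34529139, minus strand). It held 2 matches, in capitals, the first on the opposite strand 90 bases before the start site, and an AP-1 match 57 bases before it. Hdac9 has a further window at chr12:34917046-34917345 with an NF-kB core (GGGNNTTTC) and neither of these. Under some alternatives the FDR limit was missed by Hdac9 at 1 h (by DESeq2, with library totals and without control replicate 1, 2 or 3 or 1 h replicate 1 or 2, adjusted p 0.00154 to 0.0281 over 15 alternatives) and Hdac7 at 4 h (by DESeq2, without the filter and without control replicate 2 or 3 or 4 h replicate 1 or 3, adjusted p 3.88e-05 to 0.0750 over 14 alternatives).
Hdac9: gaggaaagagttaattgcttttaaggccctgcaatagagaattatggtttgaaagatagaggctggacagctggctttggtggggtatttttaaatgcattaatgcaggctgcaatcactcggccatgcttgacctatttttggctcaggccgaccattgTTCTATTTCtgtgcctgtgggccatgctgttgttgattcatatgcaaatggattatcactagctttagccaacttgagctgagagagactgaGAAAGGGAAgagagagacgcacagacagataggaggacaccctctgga

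The class IIb enzymes were both lower at 4 h. Hdac6, the cytoplasmic tubulin deacetylase, measured 24.7, 21.2 and 18.7 CPM in control, 6.20, 10.9 and 6.56 CPM at 4 h, 11.6, 4.55 and 8.23 CPM at 12 h and 16.1, 14.9 and 16.0 CPM at 24 h, and was called at 4 h (log2-fold change -1.44 ± 0.30, adjusted p = 4.07e-05) and 12 h (log2-fold change -1.38 ± 0.27, adjusted p = 1.78e-05) but not at 24 h (log2-fold change -0.46 ± 0.23, adjusted p = 0.0809). Hdac10, a polyamine deacetylase, measured 9.13, 14.1 and 8.02 CPM in control and 2.66, 3.10 and 5.74 CPM at 4 h (log2-fold change -1.43 ± 0.41, adjusted p = 0.00232). Hdac11, the class IV enzyme, was not tested and had 3, 4 and 2 counts in the control libraries and 0, 1 and 0 at 4 h. A dependence on the processing was seen for Hdac10 at 4 h (by DESeq2 and without control replicate 2 or 4 h replicate 1 or 2, adjusted p 2.32e-05 to 0.0287 over 14 alternatives).

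Of the sirtuins outside mitochondria, Sirt1 rose and then fell below control, Sirt6 rose from 4 h on and Sirt7 fell at 4 h and 12 h. Sirt1 (chr10:63319005-63381704), a nuclear deacetylase of histones, p53 and NF-κB p65, measured 30.6, 43.4 and 30.5 CPM in control, 69.3, 63.7 and 73.3 CPM at 1 h, 95.6, 126 and 113 CPM at 4 h, 19.1, 15.6 and 19.4 CPM at 12 h and 13.7, 20.4 and 20.6 CPM at 24 h. Its 1 h and 4 h libraries lay above every control and its 12 h and 24 h libraries below every control. The log2-fold change was 0.98 ± 0.15 at 1 h (adjusted p = 2.94e-07), 1.67 ± 0.15 at 4 h (adjusted p = 3.60e-15), -0.95 ± 0.20 at 12 h (adjusted p = 3.39e-05) and -0.93 ± 0.18 at 24 h (adjusted p = 1.76e-05). Sirt6, a chromatin deacetylase that acts at telomeres and NF-κB targets, measured 4.83, 3.26 and 6.95 CPM in control, 15.9, 9.31 and 9.02 CPM at 4 h, 15.6, 15.6 and 13.5 CPM at 12 h and 17.6, 13.4 and 17.3 CPM at 24 h, and rose at 4 h (log2-fold change 1.15 ± 0.36, adjusted p = 0.00544), 12 h (log2-fold change 1.55 ± 0.32, adjusted p = 3.56e-05) and 24 h (log2-fold change 1.66 ± 0.30, adjusted p = 3.90e-06). Sirt7, a nucleolar deacetylase, was lower at 4 h (log2-fold change -0.63 ± 0.20, adjusted p = 0.00650) and 12 h (log2-fold change -0.75 ± 0.19, adjusted p = 7.01e-04), and Sirt2 slightly lower at 24 h (log2-fold change -0.42 ± 0.10, adjusted p = 5.50e-04), from 177 ± 12.0 to 133 ± 8.47 CPM. The mitochondrial Sirt3, Sirt4 and Sirt5 had group means of 0.532 to 4.67 CPM along the course, and Sirt3, the 1 member of them that was tested, was not called. Not called under every alternative were Sirt6 at 4 h (by DESeq2, with library totals and without control replicate 1 or 2 or 4 h replicate 1, adjusted p 0.00271 to 0.149 over 14 alternatives), Sirt7 at 4 h (by DESeq2 and without control replicate 1 or 4 h replicate 1 or 2, adjusted p 7.31e-07 to 0.0597 over 15 alternatives) and Sirt7 at 12 h (without control replicate 1, adjusted p 1.86e-06 to 0.0137 over 15 alternatives).

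From one time point to the next, 19 members were called between 1 h and 4 h, 17 between 4 h and 12 h and 5 between 12 h and 24 h. From 1 h to 4 h, 10 members rose against a background of 20% of genes and 9 fell against 18.2%. Setdb2 (4.49 ± 0.20), Kdm4a (3.56 ± 0.16) and Setd1b (1.50 ± 0.32) led the rises, and Setd7 (-2.26 ± 0.38), Kdm2b (-1.81 ± 0.44) and Hdac5 (-1.73 ± 0.17) the falls. Ezh2 also fell over this step (log2-fold change -1.25 ± 0.28, adjusted p = 1.32e-04), as did Kdm6b (log2-fold change -1.42 ± 0.16, adjusted p = 1.10e-11) and Kdm6a (log2-fold change -1.17 ± 0.14, adjusted p = 1.94e-10). From 4 h to 12 h, 8 rose against 16.3% and 9 fell against 18.9%, with Setd7 regaining part of its level (2.31 ± 0.38) beside Kdm2b (log2-fold change 1.64 ± 0.46, adjusted p = 0.00240), Hdac10 (log2-fold change 1.35 ± 0.43, adjusted p = 0.00716) and Setd8 (1.20 ± 0.13). Sirt1 (-2.62 ± 0.17), Kdm6b (-1.78 ± 0.23) and Setdb2 (-1.37 ± 0.14) fell most. The Hdac10 libraries of 4 h (2.66, 3.10 and 5.74 CPM) and 12 h (9.82, 14.9 and 5.29 CPM) overlapped despite the call. Among the falls, Kmt2a (log2-fold change -1.18 ± 0.16, adjusted p = 8.01e-09), Kdm5c (log2-fold change -0.77 ± 0.12, adjusted p = 1.90e-07) and Kdm1a (log2-fold change -0.70 ± 0.13, adjusted p = 1.27e-05) fell back from their rise at 4 h. From 12 h to 24 h, 1 member rose, Hdac5 (log2-fold change 0.82 ± 0.19, adjusted p = 7.47e-04), against 4.24%. The 4 that fell, against 9.85%, were Kdm6b (log2-fold change -1.41 ± 0.32, adjusted p = 5.33e-04), Setdb2 (log2-fold change -0.93 ± 0.16, adjusted p = 4.50e-06), Kdm7a (log2-fold change -0.75 ± 0.11, adjusted p = 1.81e-07) and Hdac9 (log2-fold change -0.70 ± 0.20, adjusted p = 0.00771). The Rn45s antisense share differed between these 2 sets of libraries, as given above. The calls that did not hold throughout were Kdm2b from 4 h to 12 h (by DESeq2 and without 4 h replicate 2 or 12 h replicate 3, adjusted p 5.03e-04 to 0.0246 over 14 alternatives), Hdac10 from 4 h to 12 h (by DESeq2 and without 4 h replicate 1 or 2 or 12 h replicate 1 or 2, adjusted p 9.20e-04 to 0.0926 over 13 alternatives), Hdac5 from 12 h to 24 h (without 24 h replicate 3, adjusted p 1.23e-04 to 0.0144 over 15 alternatives), Kdm6b from 12 h to 24 h (without 12 h replicate 1, adjusted p 1.39e-04 to 0.0318 over 14 alternatives) and Hdac9 from 12 h to 24 h (by DESeq2, with library totals, without the filter, with only the compared groups and without 12 h replicate 3 or 24 h replicate 2 or 3, adjusted p 0.00315 to 0.269 over 15 alternatives).

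Setd8 and Kdm7a were higher than in control after 12 h of IL-4 or IL-13. The control was cultured for 4 h, so time in culture cannot be told apart from the cytokines. The members were called at shares near those of all genes. With IL-4, 2 of 48 members were higher against a background of 3.7% of genes and 0 were lower against 2.61%, by edgeR, with 6 members lower at an unadjusted p under 0.05 and 0 lower by DESeq2. With IL-13, 2 were higher against 5.02% and 2 lower against 3.41%. Setd8 measured 76.5, 73.4 and 84.7 CPM with IL-4 and 80.0, 92.6 and 80.5 CPM with IL-13, beside 44.0, 41.3 and 56.2 CPM in control. All 6 treated libraries were above the controls (IL-4 log2-fold change 0.72 ± 0.14, adjusted p = 7.86e-05, and IL-13 log2-fold change 0.84 ± 0.13, adjusted p = 2.22e-06). Kdm7a measured 189, 217 and 213 CPM in control, 298, 282 and 259 CPM with IL-4 and 276, 337 and 363 CPM with IL-13. It too lay above control in all 6 libraries (IL-4 log2-fold change 0.43 ± 0.11, adjusted p = 0.00387, and IL-13 log2-fold change 0.66 ± 0.11, adjusted p = 3.40e-06). IL-13 lowered Hdac5 from 103, 107 and 102 CPM to 72.5, 71.6 and 64.8 CPM (log2-fold change -0.58 ± 0.13, adjusted p = 4.65e-04) and Hdac7 to 4.60, 6.14 and 4.56 CPM (log2-fold change -1.22 ± 0.32, adjusted p = 0.00451). With IL-4 the same genes were at -0.32 ± 0.12 (adjusted p = 0.0903) and -0.81 ± 0.30 (adjusted p = 0.0769). Kdm6b measured 6.29, 8.34 and 8.35 CPM with IL-4 and 10.4, 5.12 and 7.09 CPM with IL-13, and its log2-fold changes of 1.06 ± 0.38 (adjusted p = 0.0610) and 1.03 ± 0.38 (adjusted p = 0.0592) did not pass the test. Between IL-13 and IL-4, edgeR called 0 members higher against 0.0711% of genes and 0 lower against 0%, and DESeq2 0, with 6 members at an unadjusted p under 0.05. The 95% interval of the IL-13 minus IL-4 difference ran from 0.02 to 0.43 for Kdm7a, -0.13 to 0.36 for Setd8 and -1.12 to 0.30 for Hdac7, on the log2 scale. Under some alternatives the FDR limit was missed by Kdm7a with IL-4 (without control replicate 1 or 3 or IL-4 replicate 1 or 2, adjusted p 2.36e-06 to 0.0434 over 15 alternatives) and Hdac7 with IL-13 (by DESeq2, with unstranded counts and without control replicate 2 or 3 or IL-13 replicate 1 or 3, adjusted p 0.00397 to 0.0871 over 14 alternatives).

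Set directly against each other at 12 h, the M1 and M2 stimuli differed in Setdb2, Kdm4a, Hdac9, Hdac1, Hdac5 and Sirt1 among others. The libraries of the 2 sides also differed in the Rn45s antisense share given above. IFN-γ-primed LPS was higher than IL-4 in 7 members against 22.5% of genes and lower in 5 against 20.6%. It was higher than IL-13 in 9 against 22.2% and lower in 6 against 20.9%. Setdb2 led at 2.76 ± 0.21 over IL-4 and 2.77 ± 0.20 over IL-13, then Kdm4a at 2.11 ± 0.16 and 2.18 ± 0.16, Hdac9 at 1.64 ± 0.24 and 1.94 ± 0.25 and Hdac1 at 1.63 ± 0.20 and 1.61 ± 0.19. Against control, these 4 enzymes were called with the M1 stimulus and with neither M2 cytokine. Hdac9 measured 24.8, 24.0 and 42.9 CPM with IFN-γ-primed LPS, 9.43, 8.90 and 11.3 CPM with IL-4 and 6.91, 7.67 and 9.11 CPM with IL-13. Sirt6 was higher with the M1 stimulus too (over IL-4 log2-fold change 0.90 ± 0.29, adjusted p = 0.00777, and over IL-13 log2-fold change 1.26 ± 0.31, adjusted p = 3.84e-04). Setd8 was above the control, cultured for 4 h, with all 3 stimuli, and time in culture cannot be told apart from the stimuli there. It was higher with IFN-γ-primed LPS than with IL-4 (log2-fold change 0.75 ± 0.12, adjusted p = 2.64e-07) or IL-13 (log2-fold change 0.63 ± 0.12, adjusted p = 6.33e-06). On the lower side stood Hdac5 (-2.22 ± 0.17 against IL-4 and -1.95 ± 0.17 against IL-13), Kdm4c (-1.15 ± 0.19 and -1.09 ± 0.20) and Sirt1 (-1.06 ± 0.19 and -1.08 ± 0.19). Setd1b was higher with IFN-γ-primed LPS than with IL-13 (log2-fold change 1.23 ± 0.27, adjusted p = 9.92e-05) and was not called against IL-4 (log2-fold change 0.54 ± 0.25, adjusted p = 0.0625). A dependence on the processing was seen for Sirt6 against IL-4 (by DESeq2, with library totals, without the filter, with only the compared groups and without 12 h replicate 1 or 2 or IL-4 replicate 2 or 3, adjusted p 0.00142 to 0.105 over 14 alternatives), Sirt6 against IL-13 (with library totals, adjusted p 2.59e-04 to 0.0115 over 14 alternatives) and Setd8 against IL-13 (with library totals, adjusted p 3.75e-06 to 0.0498 over 15 alternatives).

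**Figure D3:**
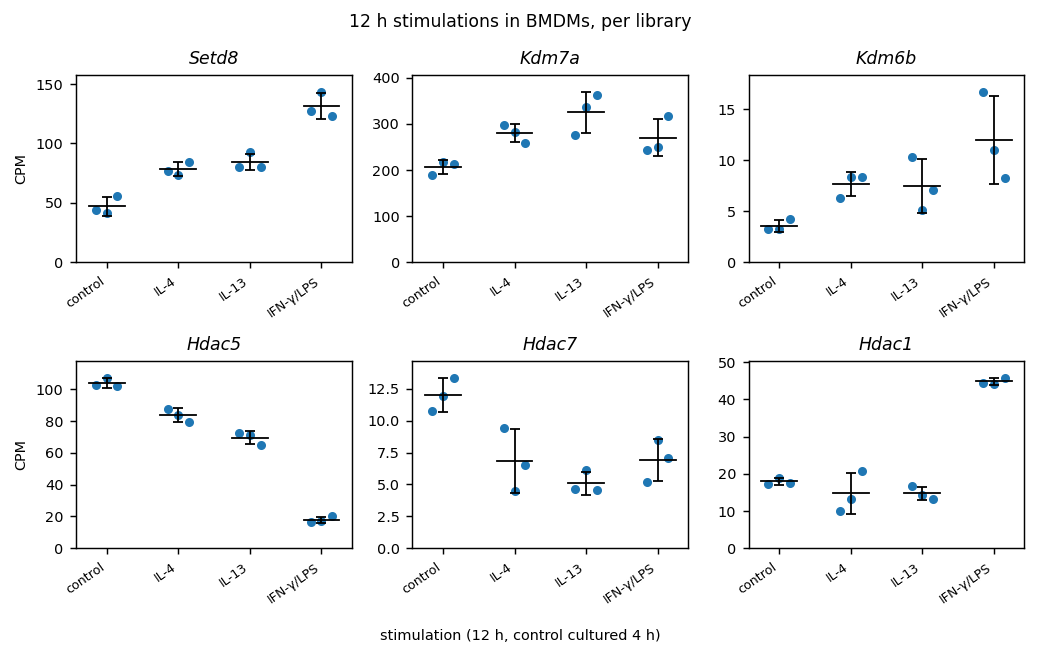
Level (CPM, linear axes that start at 0 and differ between panels) of 6 members in control BMDM (4 h of culture) and after 12 h of IL-4, IL-13 or IFN-γ-primed LPS, with points for libraries, bars for means and error bars for the SD of 3 libraries. Setd8 lies above control with all 3 stimuli, Hdac5 is lowest with IFN-γ-primed LPS, and Hdac1 lies above control in the IFN-γ-primed LPS libraries.

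Between resting RAW264.7 and resting BMDM, the PRC2 enzymes Ezh1 and Ezh2 stood in opposite order. The comparison sets a line against primary cells of another strain, grown in another medium and with M-CSF. Cell kind, strain, medium and M-CSF cannot be told apart, and the Rn45s antisense share given above differed as well. Of 49 members tested, 8 were higher in RAW264.7 against a background of 32.9% of genes and 20 were lower against 34.7%. Ezh2 led the higher ones, at 101 and 99.7 CPM in RAW264.7 and 16.6, 14.7 and 13.4 CPM in BMDM (log2-fold change 2.72 ± 0.16, adjusted p = 1.72e-34), while Ezh1 was lower, at 10.8 and 14.5 against 39.2, 39.6 and 33.7 CPM (log2-fold change -1.60 ± 0.20, adjusted p = 2.87e-12). Per kilobase, Ezh1 stood at 1.70 ± 0.355 and Ezh2 at 15.03 ± 0.139 CPM per kb in RAW264.7 control, with Ezh2 above Ezh1 in each RAW264.7 library. The 5 proliferation genes summed to 1207 to 1224 CPM in RAW264.7 control and 116 to 147 CPM in BMDM control, and their part in these values was not tested. The class I deacetylase Hdac2 (107 and 97.1 CPM against 26.8, 19.5 and 23.0 CPM, log2-fold change 2.11 ± 0.15, adjusted p = 1.09e-27) and Hdac10 (38.9 and 34.8 against 9.13, 14.1 and 8.02 CPM, log2-fold change 1.79 ± 0.22, adjusted p = 1.98e-13) were higher too, as was Hdac3 (0.88 ± 0.14). Ezh2's start region is shown as that of the member with the largest difference on the higher side. Its RefSeq window (GRCm38.p6, chr6:47594981-47595280, minus strand) held the E2F letters TTTGGCGC, in capitals, starting 4 bases after the start site, a match found in 0.514% of windows and in 0.585% of genes, and in 1 of the 43 members with a window.
Ezh2: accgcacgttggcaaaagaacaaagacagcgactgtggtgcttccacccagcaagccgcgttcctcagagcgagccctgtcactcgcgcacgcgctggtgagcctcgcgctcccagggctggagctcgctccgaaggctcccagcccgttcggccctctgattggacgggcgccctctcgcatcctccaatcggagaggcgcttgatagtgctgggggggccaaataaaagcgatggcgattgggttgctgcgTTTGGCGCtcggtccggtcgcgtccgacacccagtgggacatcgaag

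On the lower side, Hdac7 had a single sense count over both RAW264.7 control libraries against 67 sense counts over the 3 BMDM controls. Scaled for depth, BMDM exceeded RAW264.7 by a ratio of 67.8, with an exact 95% interval of 11.8 to 2717 that covers counting error only. Kdm5b measured 3.47 and 6.16 CPM in RAW264.7 and 59.0, 41.8 and 47.6 CPM in BMDM (log2-fold change -3.38 ± 0.24, adjusted p = 4.58e-28). Sirt2 (28.8 and 37.0 against 189, 166 and 176 CPM, log2-fold change -2.46 ± 0.13, adjusted p = 3.39e-39), Kdm7a (44.4 and 35.9 against 189, 217 and 213 CPM, log2-fold change -2.39 ± 0.13, adjusted p = 2.41e-40) and Kmt2e (log2-fold change -2.16 ± 0.18, adjusted p = 1.74e-23) followed. Sirt2 and Kdm7a, among the most abundant members of resting BMDM, measured 6.53 ± 1.15 and 3.99 ± 0.600 CPM per kb in RAW264.7. The H3K4 methyltransferases Kmt2a, Kmt2b, Kmt2c, Kmt2d, Setd1b and Setd7 were all among the 20 lower members, and Setd1a was not called. Their log2 differences ran from -1.10 for Kmt2c to -0.60 for Kmt2a and -0.60 for Setd7. Kmt2b (adjusted p = 0.00897) and Setd7 (adjusted p = 0.00560) passed narrowly, and the Setd7 libraries of RAW264.7 (22.6 and 17.0 CPM) and BMDM (36.5, 22.3 and 30.0 CPM) overlapped. Setdb2 (log2-fold change 1.33 ± 0.26, adjusted p = 2.54e-06), Hdac9 (log2-fold change 1.04 ± 0.22, adjusted p = 1.38e-05), Setd6 (log2-fold change 1.22 ± 0.35, adjusted p = 0.00111) and Kdm1a (log2-fold change 0.60 ± 0.14, adjusted p = 5.98e-05) were higher in RAW264.7, and Kdm4a was lower (log2-fold change -0.56 ± 0.20, adjusted p = 0.00773). Not called under every alternative were Setd1b (by DESeq2, with library totals and without RAW264.7 control replicate 1, adjusted p 3.40e-04 to 0.0248 over 14 alternatives), Kmt2a (with library totals and without RAW264.7 control replicate 1, adjusted p 4.68e-05 to 0.0511 over 14 alternatives), Setd7 (by DESeq2, with library totals, with a replicate block and without control replicate 1 or 3 or RAW264.7 control replicate 2, adjusted p 0.00108 to 0.151 over 13 alternatives), Kmt2b (by DESeq2, with library totals, without the filter, with the stricter filter, with unstranded counts, with a replicate block and without control replicate 1, 2 or 3 or RAW264.7 control replicate 1 or 2, adjusted p 0.00833 to 0.142 over 14 alternatives), Setd6 (by DESeq2, with a replicate block and without RAW264.7 control replicate 1, adjusted p 6.03e-05 to 0.0416 over 13 alternatives), Kdm1a (without RAW264.7 control replicate 2, adjusted p 5.96e-09 to 0.0149 over 14 alternatives) and Kdm4a (by DESeq2, with library totals, without the filter, with the stricter filter and without control replicate 1 or 2 or RAW264.7 control replicate 1 or 2, adjusted p 0.00400 to 0.199 over 14 alternatives).

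**Figure D4:**
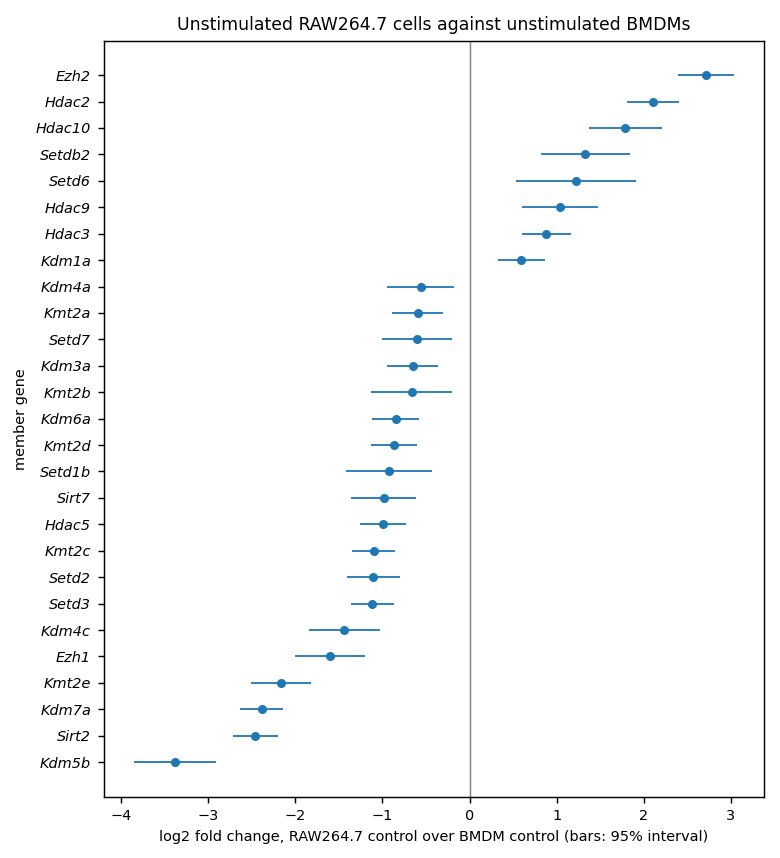
Log2 difference of control RAW264.7 minus control BMDM with its 95% interval for the called members, other than Hdac7, which had 1 count in RAW264.7. The 8 members to the right of 0 are led by Ezh2, Hdac2 and Hdac10 and those to the left by Kdm5b, Sirt2 and Kdm7a.

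LPS alone for 4 h in RAW264.7 raised Kdm6b most and lowered Hdac9 most. Of 48 members tested, 4 rose against 15.1% of genes and 8 fell against 12.8%. Kdm6b measured 3.47 and 1.81 CPM in control and 29.5 and 21.5 CPM with LPS (log2-fold change 3.27 ± 0.32, adjusted p = 1.04e-22), and Kdm5b 3.47 and 6.16 CPM in control and 14.7 and 11.1 CPM with LPS (log2-fold change 1.45 ± 0.33, adjusted p = 7.11e-05). Both LPS libraries lay above both controls for each. Kdm4a (from 19.1 and 18.1 to 25.9 and 30.8 CPM, log2-fold change 0.65 ± 0.20, adjusted p = 0.00338) and Kdm1a (log2-fold change 0.44 ± 0.12, adjusted p = 9.39e-04) were the other rises. Hdac9 fell furthest, from 31.2 and 22.8 to 2.79 and 4.85 CPM (log2-fold change -2.75 ± 0.29, adjusted p = 1.20e-19), then Sirt1, from 35.1 and 30.4 to 11.9 and 14.9 CPM (log2-fold change -1.24 ± 0.20, adjusted p = 1.72e-08). Ezh2 fell from 101 and 99.7 to 58.5 and 57.2 CPM (log2-fold change -0.75 ± 0.12, adjusted p = 7.35e-09) and the 5 proliferation genes from a sum of 1207 to 1224 to 767 to 796 CPM, whose part was not tested. Kdm3b fell too (log2-fold change -0.80 ± 0.15, adjusted p = 3.17e-07). The other falls were in Setd7 (log2-fold change -0.87 ± 0.25, adjusted p = 0.00204), Hdac5 (log2-fold change -0.68 ± 0.15, adjusted p = 6.80e-05), Kmt2c (log2-fold change -0.55 ± 0.14, adjusted p = 8.03e-04) and Setd8 (log2-fold change -0.46 ± 0.14, adjusted p = 0.00438). The calls that did not hold throughout were Kdm5b (by DESeq2 and without RAW264.7 control replicate 1 or RAW264.7 LPS replicate 1, adjusted p 2.75e-05 to 0.0506 over 12 alternatives), Kdm4a (by DESeq2, with library totals and without RAW264.7 control replicate 1 or 2 or RAW264.7 LPS replicate 2, adjusted p 0.00330 to 0.187 over 12 alternatives), Kdm1a (by DESeq2, with library totals and without RAW264.7 control replicate 1 or RAW264.7 LPS replicate 1, adjusted p 1.28e-04 to 0.0931 over 12 alternatives), Setd7 (by DESeq2 and without RAW264.7 control replicate 1 or RAW264.7 LPS replicate 1, adjusted p 1.71e-04 to 0.210 over 12 alternatives), Hdac5 (by DESeq2 and without RAW264.7 control replicate 2, adjusted p 3.25e-07 to 0.0442 over 12 alternatives), Kmt2c (by DESeq2 and without RAW264.7 control replicate 1 or RAW264.7 LPS replicate 1, adjusted p 5.02e-06 to 0.0969 over 12 alternatives) and Setd8 (by DESeq2 and without RAW264.7 control replicate 1 or RAW264.7 LPS replicate 1 or 2, adjusted p 4.44e-05 to 0.177 over 12 alternatives).

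The 4 h responses of RAW264.7 to LPS and of BMDM to IFN-γ-primed LPS were compared by an interaction term. Cell, strain, medium and stimulus differ together and cannot be told apart. The RAW264.7 response was higher in 4 of 49 members against 11.1% of genes and lower in 8 against 16.4%. Setdb2, raised 22.4-fold in BMDM, measured 19.1 and 18.8 CPM in RAW264.7 control and 16.3 and 15.6 CPM with LPS (log2-fold change -0.21 ± 0.23, adjusted p = 0.500), and the difference between responses was -4.74 ± 0.31 (adjusted p = 1.59e-30). Kdm4a rose in both and by less in RAW264.7 (-2.79 ± 0.25, adjusted p = 1.35e-19). Sirt1 rose in BMDM and fell in RAW264.7 (difference -2.95 ± 0.26, adjusted p = 1.54e-20), and Hdac9 fell in RAW264.7 with 0.70 ± 0.26 in BMDM (difference -3.48 ± 0.40, adjusted p = 1.11e-13). In the opposite sense, Kdm5b fell in BMDM and rose in RAW264.7 (difference 2.64 ± 0.38, adjusted p = 1.34e-09). Setd7 (2.24 ± 0.48, adjusted p = 4.19e-05) and Hdac5 (1.39 ± 0.25, adjusted p = 7.57e-07) fell in both and by less in RAW264.7. Kdm3b (-1.23 ± 0.22, adjusted p = 3.15e-06), Kdm5c (-0.94 ± 0.16, adjusted p = 4.12e-07), Kmt2a (-0.90 ± 0.21, adjusted p = 1.96e-04) and Setd8 (-0.78 ± 0.22, adjusted p = 0.00213) were the other negative differences. Setd4, at 11, 4 and 10 counts in BMDM control and 2, 2 and 1 at 4 h, rested on few counts (2.48 ± 0.75, adjusted p = 0.00444). Kdm6b, with rises of 3.51 ± 0.28 in BMDM and 3.27 ± 0.32 in RAW264.7, had a difference of -0.29 ± 0.57 with a 95% interval of -1.41 to 0.82 and was not called (adjusted p = 0.749), nor was Hdac1 (-0.59 ± 0.30, adjusted p = 0.120). Under some alternatives the FDR limit was missed by Setd7 (without RAW264.7 LPS replicate 2, adjusted p 5.95e-07 to 0.0171 over 17 alternatives), Kmt2a (with library totals, adjusted p 2.39e-05 to 0.0597 over 18 alternatives), Setd8 (by DESeq2, with library totals, with the stricter filter and without control replicate 2 or 4 h replicate 2 or RAW264.7 control replicate 1, adjusted p 5.15e-04 to 0.198 over 18 alternatives) and Setd4 (by DESeq2 and without control replicate 1 or 3 or 4 h replicate 2 or 3 or RAW264.7 control replicate 1 or RAW264.7 LPS replicate 2, adjusted p 5.45e-04 to 0.0650 over 17 alternatives).

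**Figure D5:**
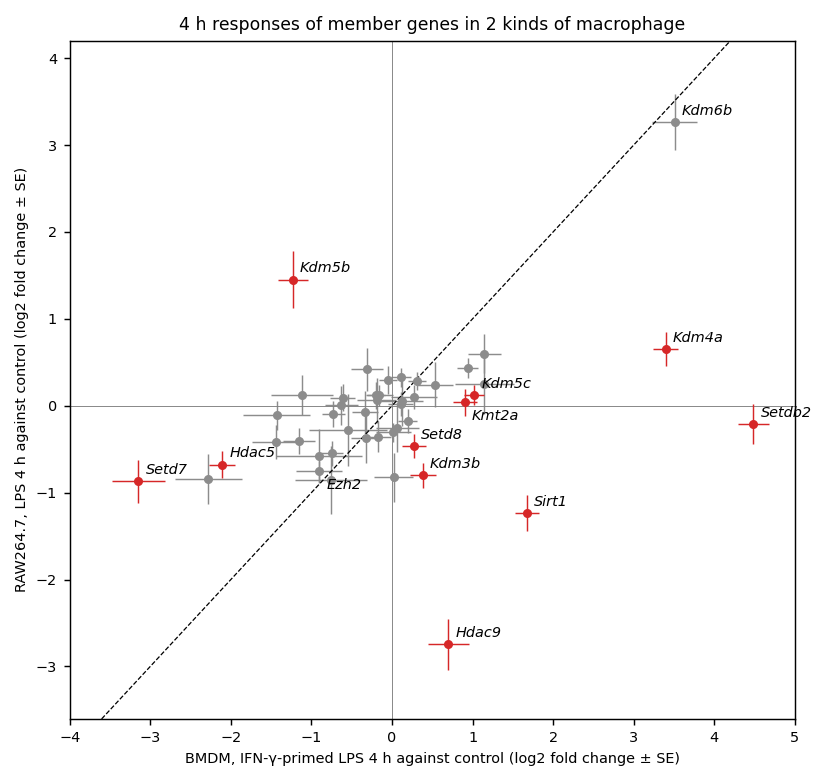
Log2-fold change ± SE at 4 h of IFN-γ-primed LPS in BMDM (horizontal) and of LPS alone in RAW264.7 (vertical) for the members tested in both, with the dashed line marking equal responses and red the members whose difference was called, other than Setd4, which was not tested in BMDM alone. Setdb2 and Kdm4a lie far below the line, Kdm6b close to it, and Kdm5b and Setd7 above it.

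The partners of these enzymes and other writers and erasers, listed by complex, were examined for comparison. Of 49 tested in BMDM, 6 were higher against 15.2% of all genes and 2 lower against 10.9% at 1 h, 9 against 26.4% and 6 against 24.5% at 4 h, 9 against 24.5% and 11 against 22.4% at 12 h and 6 against 23.1% and 9 against 21.5% at 24 h. With IL-4 and IL-13 edgeR called 0 of them and DESeq2 0, while 9 and 10 had an unadjusted p under 0.05. In PRC2, the complex of Ezh1 and Ezh2, Jarid2 (1.81 ± 0.19), Mtf2 (0.83 ± 0.24) and Suz12 (0.71 ± 0.14) were higher at 4 h, when Ezh2 itself was lower. Between resting cells, 6 of the 7 PRC2 partners were higher in RAW264.7, as Ezh2 was, against 32.9% of all genes, led by Phf19 (3.77 ± 0.25) and Rbbp7 (1.68 ± 0.11). Of 5 COMPASS partners tested in BMDM, 0 were called at 4 h by edgeR and 0 by DESeq2, with 3 at an unadjusted p under 0.05. In resting RAW264.7 Wdr5 (0.97 ± 0.13) and Ash2l (0.69 ± 0.15) were higher. Of the HDAC complexes, the Sin3 scaffold Sin3b (1.05 ± 0.12) and the NuRD helicase Chd4 (0.77 ± 0.11) rose at 4 h beside Hdac1. Among other enzymes at 4 h, the H3K36 methyltransferase Whsc1l1 rose (1.59 ± 0.11), while the methyltransferases Nsd1 (-0.76 ± 0.16) and Whsc1 (-0.56 ± 0.15) fell. Jmjd1c (-1.60 ± 0.11) and the H4K20 methyltransferase Suv420h2 (-3.18 ± 0.47) fell too. The acetyltransferases Kat2b (1.15 ± 0.13) and Kat6a (1.22 ± 0.13), which oppose the deacetylases, rose. After LPS in RAW264.7, 5 of 51 partners were higher against 15.1% of all genes and 7 lower against 12.8%. Between resting cells 17 of 52 were higher against 32.9% and 17 lower against 34.7%, and the response was higher in 4 against 11.1% and lower in 8 against 16.4%.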

How the data were processed

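The deposited files hold whole-number counts of reads per gene symbol for each of the 25 libraries, which the authors made from rRNA-depleted, directional paired-end reads with CASAVA 1.8.2, Trimmomatic 0.33 and STAR 2.5.1 on mm10; the annotation release is not given in the sources used here. The strand column with nearly all gene reads (sense over antisense 93.9 to 158) was used. Reads assigned to no feature, 62.7 to 69.1% of reads, and Rn45s were left out, since the latter would otherwise set the scale. The genes described and all lists were chosen with earlier results of these data known.

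The main test was edgeR 4.0.16 (R 4.3.3): TMM, filterByExpr, robust quasi-likelihood F test, Benjamini-Hochberg adjustment, a call at an adjusted p of at most 0.01, in 3 fits (21 BMDM, 4 RAW264.7, and 10 samples for comparisons between them). SE is the log2-fold change divided by the root of F. The study calls its BMDM samples independent RNA preparations, and p-values measure the spread between libraries. The 23 replicate pairs differed by more than counting noise (chi-square per degree of freedom 1.298 to 4.531). Same-numbered BMDM libraries did not deviate together (mean r 0.0144, 3 of 63 pairs over 0.1), so the replicate number was no block. On simulated counts for the 4 h comparison in BMDM (9518 genes), 62 of 100 genes were recovered at a log2-fold change of 1 and 97 of 100 at 2, with 2 false calls. For LPS in RAW264.7 (9379 genes), 49 of 100 and 93 of 100 were recovered, with 2 false calls. The simulation gave all genes the same spread, left the other genes unchanged and changed no gene of few counts. It does not show the recovery of members with few counts or with a larger spread.

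Members with a call at an absolute log2-fold change of at least 1 and a mean of at least 5 CPM, the 3 largest rises and falls per comparison, the close pairs (Ezh1 and Ezh2, Kdm6a and Kdm6b, Kdm5c and Kdm5d, Hdac1 and Hdac2, Setdb1 and Setdb2, Sirt1 and Sirt6) and the 3 steadiest members are named with values, and the others by counts and ranges. Exon lengths came from GENCODE M21 and promoter windows from RefSeq (43 of 54 members, GRCm38.p6), searched on both strands for the interferon-stimulated response element core (GAAANNGAA), STAT (TTCNNNGAA), the same with STAT6 spacing, the NF-kB core (GGGNNTTTC), AP-1 (TGANTCA), the E-box (CACGTG) and E2F (TTTGGCGC). Alternatives were DESeq2 1.42.0, RLE size factors, library totals, no filter, a minimum of 10 counts in every sample, unstranded counts, Rn45s kept, a replicate block, only the compared groups, FDR 0.05, and each library left out in turn. BMDM given LPS alone were not analysed here. Some genes that are no members are not reported here.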

Additional observations from a re-analysis of the deposited data

Results flagged for a closer look

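The 4 h response of RAW264.7 to LPS was compared with that of BMDM to IFN-γ-primed LPS (interaction term, edgeR, adjusted p of at most 0.01). The response in RAW264.7 was called higher in 4 of 49 members, 8.16%, against 11.1% of all genes. It was called lower in 8, 16.3%, against 16.4%. These shares are read as no result about the members. Cell, strain, medium and stimulus differ together between the 2 arms and cannot be told apart. The log2 difference, RAW264.7 minus BMDM, was -4.74 for Setdb2, -3.48 for Hdac9, -2.95 for Sirt1, -2.79 for Kdm4a, -1.23 for Kdm3b, -0.94 for Kdm5c, -0.90 for Kmt2a and -0.78 for Setd8. On the other side it was 1.39 for Hdac5, 2.24 for Setd7, 2.48 for Setd4 and 2.64 for Kdm5b. Sirt1 and Kdm5b were called in opposite directions in the 2 cells, and their BMDM calls at 4 h against control held under every alternative, while the RAW264.7 call of Kdm5b was lost by DESeq2 and without RAW264.7 control replicate 1 or LPS replicate 1 (adjusted p 2.75e-05 to 0.0506 over 12 alternatives).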

How the results depend on the processing

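Of 194 calls of a member in a comparison, 125 held under every alternative and 69 were lost under 1 or more, 59 of them with a library left out. 0 reversed direction. Rn45s kept lost 0 calls and RLE size factors 1. With DESeq2 the members higher fell from 5 to 2 at 1 h, from 8 to 5 from 4 h to 12 h and from 4 to 1 with LPS in RAW264.7, and the members lower from 14 to 9 at 4 h, from 2 to 1 with IL-13 and from 8 to 4 in RAW264.7. At FDR 0.05 the members lower were 8 at 1 h, 17 at 12 h, 15 at 24 h, 7 from 12 h to 24 h and with IL-13, 11 for IFN-γ-primed LPS against IL-4 and 10 against IL-13. The members higher were then 4 from 12 h to 24 h, 8 with LPS in RAW264.7 and 11 in the difference of responses. With 10 counts in every sample, fewer members were tested, and those higher were 2 at 1 h, 5 at 12 h, 3 at 24 h and 5 from 4 h to 12 h, and those lower 8 at 4 h, 4 from 1 h to 4 h and 2 from 12 h to 24 h. With library totals the members lower were 13 at 1 h, 26 at 4 h, 24 at 12 h, 18 at 24 h, 15 from 1 h to 4 h, 22 against IL-4 and 18 against IL-13, and those higher 2 at 1 h, 3 from 12 h to 24 h, 2 with LPS in RAW264.7, 13 in resting RAW264.7 and 17 in the difference of responses. Without the filter, 2 were higher from 12 h to 24 h and 8 lower against IL-4. With the compared groups alone, 8 were lower at 1 h, and with unstranded counts 1 was lower with IL-13.

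Leaving out single libraries gave 2 to 3 members higher at 1 h (every library of control and 1 h) and 3 to 5 lower (1 h replicate 3), 4 to 8 higher from 4 h to 12 h (4 h replicate 2), 0 to 2 higher from 12 h to 24 h (12 h replicates 1 and 2, 24 h replicates 1 and 3), 1 to 2 higher with IL-4 (control replicates 1 and 3, IL-4 replicates 1 and 2), 1 to 2 lower with IL-13 (control replicate 3, IL-13 replicate 1) and 4 to 8 lower against IL-4 (12 h replicate 1). In RAW264.7 with LPS it gave 2 to 4 higher (control replicate 1, LPS replicate 1) and 5 to 7 lower (LPS replicate 1), and in the difference of responses 2 to 5 higher (RAW264.7 LPS replicate 2). With 1 RAW264.7 library in a group, the lone library is assumed to vary like the others.

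The replicate block, for numbers that are not stated to pair the samples, changed no count by over 1.5 times (9 higher and 14 lower at 4 h, 5 higher and 8 lower in RAW264.7 with LPS). It lost the calls of Setd7, Kmt2b and Setd6 between resting cells. The cause of each lost call was not tested. Depth limits genes of few counts: at 1502618 to 2532496 counts per library, Hdac11, Kdm4d, Sirt4 and Sirt5 could not be tested in any comparison.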

Other observations

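Hdac1 had 66 antisense counts against 94 sense counts over the 3 libraries of 1 h, and 1 antisense against 100 sense counts in control, 8 against 146 at 4 h and 2 against 223 at 12 h. Other members had antisense counts too. Hdac7 had 38 antisense against 29 sense counts with IL-13, 32 against 67 in control BMDM and 11 against 1 in control RAW264.7. Kdm1b had 137 against 84 in control RAW264.7 and 43 against 108 in control BMDM. The sense counts alone were used for the levels of these genes, and what lies on the other strand was not examined here.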
